A study of Homo sapiens with 6 samples.

Results

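Of the 838 regions in the deposited list of H3K27ac changes, 416 (49.6%) held neither the first nor the last coordinate of any protein coding or lncRNA gene of RefSeq on GRCh38.p14, and these off-boundary regions are described here. A total of 335 lay inside the body of at least 1 gene and 81 lay outside all gene bodies, while the other 422 crossed a boundary. Chromatin was immunoprecipitated with an antibody to H3K27ac and sequenced in KMS-11, KMS-12 and RPMI8226, established lines of the plasma cell malignancy multiple myeloma, labelled wild type. Each line gave 1 sample treated with the BET bromodomain inhibitor JQ1 (1 µM, 72 h) and 1 DMSO control, 6 samples in all. The authors' deposited table holds 1 log fold change per region and line, with no read count, depth or error. It is read here as log2 of JQ1 over DMSO, although the file writes neither the base nor the numerator.

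H3K27ac is acetylation of lysine on the tail of histone H3, and it marks active promoters and enhancers. Promoters lie at gene starts, and the mark commonly extends downstream from a start over the first part of the gene. Enhancers act from introns or from the ground between genes, and plasma cells and myeloma cells use large enhancers for their lineage genes. BET proteins bind acetylated histones, and JQ1 displaces them.

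RefSeq promoter windows on GRCh38.p14 (250 bases before to 50 after a transcription start) show how the regions sit against starts. In each of the windows below, written 5′ to 3′ on the gene's strand, capitals mark the bases that lie inside the deposited region. The regions of IRF4, ERN1 and TUBA1B began just past the start, that of ANKRD36B ended just before it, and those of ZMYM2 and PREX1 lay at an additional start far inside the gene.
IRF4 (chr6:391502-391801, + strand): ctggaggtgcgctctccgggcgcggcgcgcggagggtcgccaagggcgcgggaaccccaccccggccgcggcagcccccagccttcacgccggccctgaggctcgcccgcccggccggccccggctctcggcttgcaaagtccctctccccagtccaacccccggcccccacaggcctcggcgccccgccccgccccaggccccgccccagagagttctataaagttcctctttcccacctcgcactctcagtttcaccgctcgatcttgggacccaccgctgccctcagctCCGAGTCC
ERN1 (chr17:64130095-64130394, - strand): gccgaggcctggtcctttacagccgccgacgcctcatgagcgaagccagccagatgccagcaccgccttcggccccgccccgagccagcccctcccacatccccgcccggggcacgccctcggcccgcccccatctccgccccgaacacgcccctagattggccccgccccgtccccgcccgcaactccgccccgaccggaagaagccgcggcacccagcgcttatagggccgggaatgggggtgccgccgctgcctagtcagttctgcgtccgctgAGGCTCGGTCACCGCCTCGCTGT
TUBA1B (chr12:49131346-49131645, - strand): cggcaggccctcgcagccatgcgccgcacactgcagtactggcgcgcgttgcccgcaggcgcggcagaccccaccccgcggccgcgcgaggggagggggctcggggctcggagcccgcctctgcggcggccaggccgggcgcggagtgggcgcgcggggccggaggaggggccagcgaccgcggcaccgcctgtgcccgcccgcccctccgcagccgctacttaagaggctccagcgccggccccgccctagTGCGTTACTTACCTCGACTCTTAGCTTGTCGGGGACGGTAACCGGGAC
ANKRD36B (chr2:97589828-97590127, - strand): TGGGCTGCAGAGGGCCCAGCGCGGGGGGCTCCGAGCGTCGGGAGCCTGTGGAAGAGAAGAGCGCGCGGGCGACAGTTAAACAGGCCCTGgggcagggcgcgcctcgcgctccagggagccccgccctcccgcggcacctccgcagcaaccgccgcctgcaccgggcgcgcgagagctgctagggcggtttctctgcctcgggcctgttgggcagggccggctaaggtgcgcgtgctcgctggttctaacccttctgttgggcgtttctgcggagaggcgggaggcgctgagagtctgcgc
ZMYM2 (chr13:19958774-19959073, + strand): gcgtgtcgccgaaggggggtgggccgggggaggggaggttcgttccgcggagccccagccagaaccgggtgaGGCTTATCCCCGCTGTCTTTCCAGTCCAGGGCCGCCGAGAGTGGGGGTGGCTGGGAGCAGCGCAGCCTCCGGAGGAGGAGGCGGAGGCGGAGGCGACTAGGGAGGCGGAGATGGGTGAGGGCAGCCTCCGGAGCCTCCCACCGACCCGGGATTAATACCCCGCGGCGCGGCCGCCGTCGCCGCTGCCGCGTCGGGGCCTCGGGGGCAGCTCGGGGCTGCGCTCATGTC
PREX1 (chr20:48827950-48828249, - strand): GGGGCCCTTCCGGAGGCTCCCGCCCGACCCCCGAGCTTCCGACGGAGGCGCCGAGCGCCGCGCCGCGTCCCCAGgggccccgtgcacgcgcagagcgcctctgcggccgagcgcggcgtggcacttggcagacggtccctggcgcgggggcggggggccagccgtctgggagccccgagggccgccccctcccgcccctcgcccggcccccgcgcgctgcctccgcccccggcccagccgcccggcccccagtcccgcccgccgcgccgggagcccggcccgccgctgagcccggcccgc
Only 8 bases of the IRF4 window and 23 of the ERN1 window were inside their regions, against 228 of the ZMYM2 window, whose region held the additional start itself. Off-boundary regions overlapped 183 such windows. The GC box GGGCGG, searched on both strands like every motif here, was in 147 of the 183 (80.3%) and in 44.95% of all 35116 windows. The E box CACGTG, which MYC and MAX can bind, was in 26 (14.2%) against 7.26%. The TATA box TATAAA was in 7 (3.83%, IRF4 among them) against 11.5%, and the AP-1 motif TGANTCA in 4 (2.19%) against 7.71%. The whole window was searched, so a match can lie outside the region, like the TATAAA of IRF4. Windows of regions across a boundary were not counted apart, so these shares are not shown to be particular to off-boundary regions. The windows were not matched for base composition, and a match describes letters and not binding.

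All 838 regions have 3 negative values in the authors' deposited table, and the number of lines it gives for each region equals the number of values below -0.5. Its list was therefore filtered on these values, so the direction is a property of the list and was not tested. With 1 sample per group in the labels no difference between lines has a replicate check. The series' design text mentions duplicates in its account of the RNA-seq, and whether a ChIP-seq value rests on more than 1 library is not stated. In bulk cells a lower value cannot be told apart between fewer cells with the mark and less of the mark per cell. No off-boundary region was assigned to any gene on the marker lists for B cells, T and NK cells, myeloid cells or stroma. These lists hold 12, 11, 11 and 10 genes, and over all protein coding genes only 1.78% had such a region. The absence is therefore near that share, and a list of losses does not show which cells were present.

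Regions inside genes lay closer to a boundary than those outside. The median distance to the nearest boundary was 376 bp inside gene bodies and 5577 bp outside them. Within 1 kb of a boundary lay 209 of 335 regions inside (62.4%) and 23 of 81 outside (28.4%), while 43 inside and 27 outside were more than 10 kb away. Where the strand of the nearest gene was known, the nearer boundary was a start for 232 of the regions inside and an end for 51, and for 36 and 27 of those outside. Inside gene bodies and within 250 bp, 133 regions were nearest a start and 2 nearest an end.

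**Figure D1:**
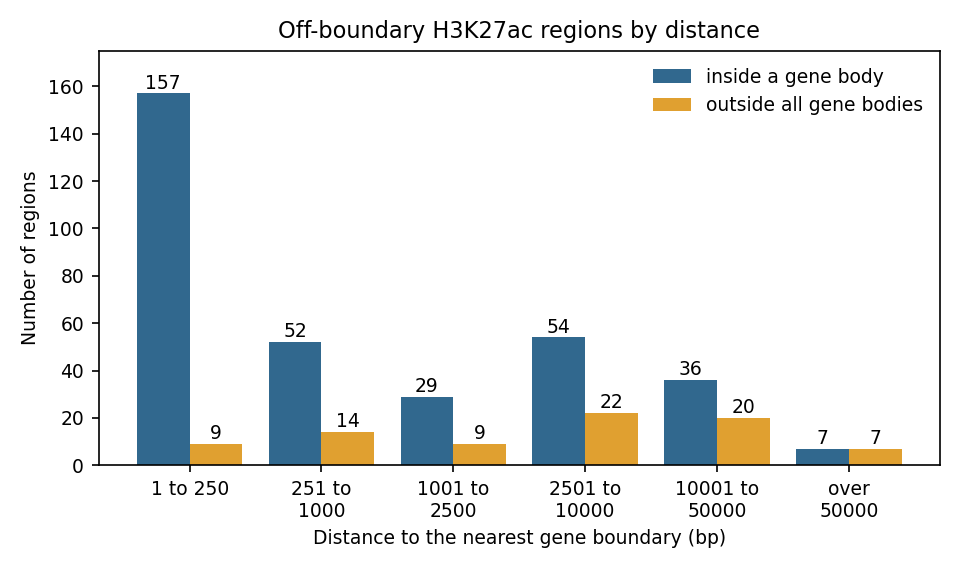
Number of off-boundary regions (vertical axis) by distance in bp from the region's nearer edge to the nearest gene boundary (horizontal axis, classes), for regions inside a gene body and outside all gene bodies. The class of 1 to 250 bp holds 157 regions inside and 9 outside.

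A total of 188 off-boundary regions had a gene start as their nearest boundary within 1 kb, 150 of them downstream of it (79.8%) and 38 upstream. Since only the nearest boundary was used, a region upstream of 1 gene can lie inside another. The regions in H3-3A and SEC61A1 count as upstream, of the neighbours H3-3A-DT and LOC102723759. The downstream regions began a median of 71 bp and ended a median of 1104 bp past the start. Among the 289 regions with a host gene of known strand, 146 (50.5%) fell in the first 10% of the host's length and 12 (4.15%) in the last 10%. Hosts numbered 353 genes, 312 protein coding and 41 lncRNA, and 33 regions lay in lncRNA genes alone.

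**Figure D2:**
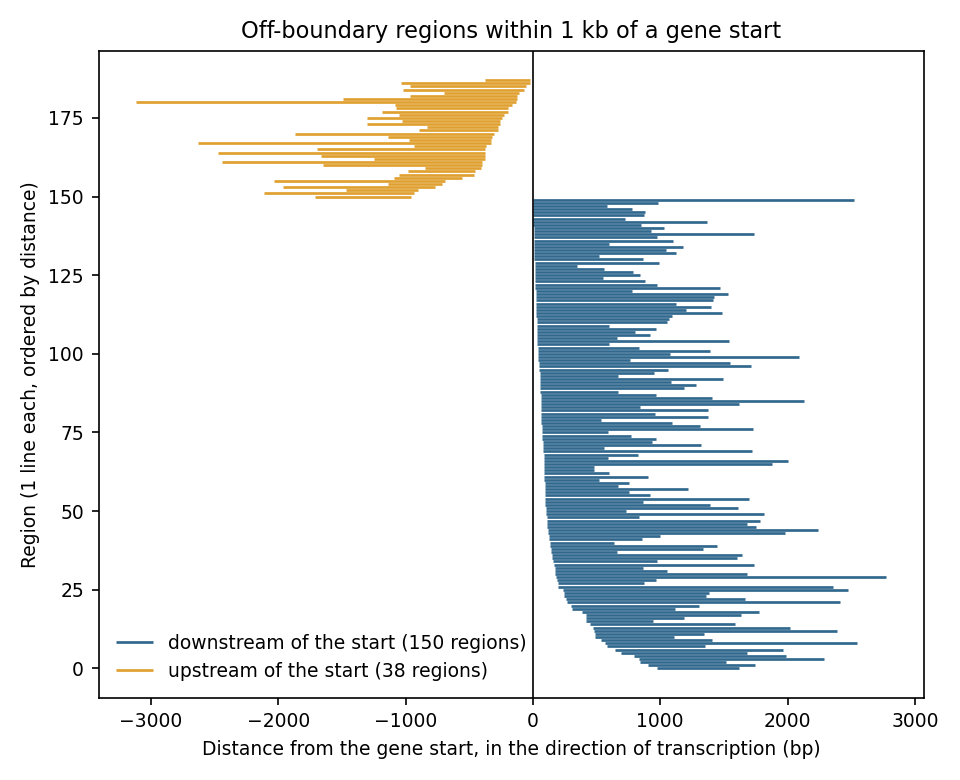
Extent of each of the 188 off-boundary regions within 1 kb of a gene start (horizontal axis, bp from the start, positive downstream; 1 line per region). The 150 downstream regions fill the right side, with a median near edge of 71 bp and a median far edge of 1104 bp. The start is the region's nearest boundary, so a region upstream of it can lie inside another gene.

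Some regions off every outer boundary still sat on a promoter. RefSeq places an additional start inside 61 of the 335 regions in gene bodies (18.2%). Of these 61, 12 were below -0.5 in all 3 lines (19.7%), against 77 of the 274 without one (28.1%). Medians in the authors' deposited table were -0.68, -0.71 and -0.53 with such a start and -0.65, -0.72 and -0.58 without, in the order KMS-11, KMS-12 and RPMI8226 that is kept from here on. Inside genes and more than 1 kb from any boundary or tabled start were 83 regions, 20 of them below -0.5 in all 3 lines (24.1%), with medians of -0.69, -0.75 and -0.59 in the authors' deposited table.

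The typical size of the loss among listed regions was close in all positions. Every listed region was below -0.5 in 2 or 3 lines, so medians past that limit are partly set by the filter in each position. Medians in the authors' deposited table were -0.66, -0.72 and -0.56 inside gene bodies, -0.72, -0.71 and -0.55 outside, and -0.66, -0.66 and -0.57 across boundaries. The off-boundary medians correspond to 37.4%, 39.4% and 32.2% less signal. Per region, the line with the deepest loss was KMS-12 in 203 of 416 cases, KMS-11 in 130 and RPMI8226 in 83. The shares of 48.8%, 31.25% and 19.95% were near those of the whole list (44.6%, 33.8% and 21.6%). The range between lines had a median of 0.53 over these regions in the authors' deposited table.

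**Figure D3:**
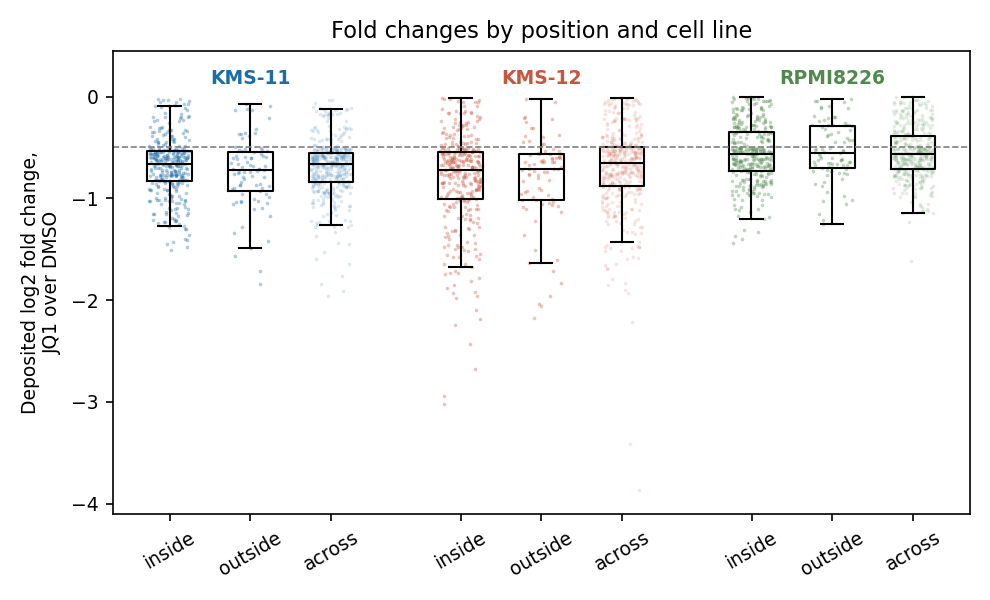
Log2 fold changes of the authors' deposited table (vertical axis) by cell line for regions inside gene bodies, outside them and across boundaries. Points are regions, boxes span the quartiles with the median as a line, and whiskers reach the last value within 1.5 box lengths. The boxes overlap largely within each line, with medians from -0.72 to -0.55.

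Of the 416 regions, 109 (26.2%) were below -0.5 in all 3 lines, against 25.4% of the whole list. The shares were 26.6% inside, 24.7% outside and 24.6% across, all near that background. Below -0.5 in KMS-11 were 338 off-boundary regions (81.3%, list 83.4%), in KMS-12 336 (80.8%, list 77.7%) and in RPMI8226 267 (64.2%, list 64.3%). Among the 307 regions below it in 2 lines, RPMI8226 was the line above -0.5 in 149, KMS-12 in 80 and KMS-11 in 78. These are 35.8%, 19.2% and 18.75% of the off-boundary regions, close to 35.7%, 22.3% and 16.6% of the whole list. Taking the lines in pairs, KMS-12 and RPMI8226 were both below -0.5 in 187 off-boundary regions, KMS-11 and RPMI8226 in 189, and KMS-11 and KMS-12 in 258.

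The deeper losses were more frequent off the boundaries, a difference that was not tested, although the lowest values of the list lay across a boundary. In the authors' deposited table the lowest values across were -1.96, -3.86 and -1.62, against -1.84, -3.02 and -1.44 off the boundaries. Below -1 in KMS-11 were 66 off-boundary regions (15.9%, list 13.5%), against 11.1% of regions across. In KMS-12 the count was 107 (25.7%, list 21.2%) against 16.8%, and in RPMI8226 24 (5.77%, list 4.42%) against 3.08%. At least 2 lines were below -1 in 47 regions (11.3%, list 7.4%), made up of 36 inside (10.75%) and 11 outside (13.6%), against 15 across (3.55%). All 3 lines were below -1 in 5 regions, namely those in TCEA1, HAGHL, IRF4 and DDIT4 and 1 near ADGRL1, and none of the 422 regions across a boundary did so. With 1 line left out, the share below -1 in both others was 2.88% off-boundary and 0.24% across without KMS-11, 2.16% and 0.24% without KMS-12, and 8.65% and 3.08% without RPMI8226. Off-boundary regions were narrower (median 1007.5 bp against 1349 bp), and whether width bears on this difference was not tested.

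**Figure D4:**
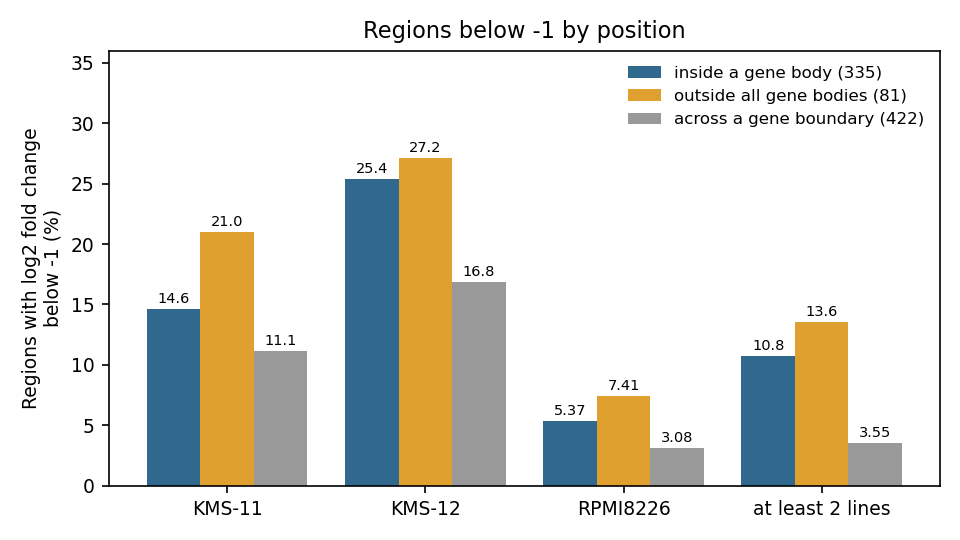
Percent of regions below -1 in the authors' deposited table (vertical axis, from 0) by cell line and in at least 2 lines, for regions inside gene bodies, outside them and across boundaries. In each line the share across boundaries (11.1%, 16.8% and 3.08%) is the lowest of the 3.

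Inside gene bodies the lowest mean belonged to a region in TCEA1, which encodes the elongation factor TFIIS (chromosome 8, 54019875 to 54020579). The authors' deposited table gives it -1.10, -2.43 and -1.06. In IRF4, the transcription factor on which plasma cells and myeloma cells depend (chromosome 6, 391794 to 393844), the region began 42 bp past the start and read -1.10, -1.81 and -1.07 in the authors' deposited table. In both, KMS-12 was lowest and the other lines were close to each other.

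ERN1 encodes IRE1, a sensor of the unfolded protein response, and its region (chromosome 17, 64128938 to 64130117) read -0.99, -1.37 and -1.37 in the authors' deposited table. SEL1L, an adaptor for degrading misfolded proteins, had a region 3420 bp past its start (chromosome 14, 81529773 to 81530433) at -1.30, -1.85 and -0.85 in the authors' deposited table. A second SEL1L region was weaker in each line, at -0.61, -0.67 and -0.52 in the authors' deposited table. RTN3, which shapes the reticulum membrane, had one 8019 bp past its start (chromosome 11, 63689469 to 63690050) at -0.82, -1.98 and -1.33 in the authors' deposited table. A second RTN3 region read -0.23, -0.88 and -0.69 in the authors' deposited table and did not pass -0.5 in KMS-11. The other 4 regions were below -0.5 in every line, and RPMI8226 was not the weakest line in ERN1 or in either RTN3 region.

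CLIP1, a protein of growing microtubule ends, held a region (chromosome 12, 122406187 to 122407587) at -1.27, -2.68 and -0.56 in the authors' deposited table. HAGHL (chromosome 16, 727170 to 728185) read -1.14, -1.96 and -1.14 in the authors' deposited table. In other genes the loss was far from shared. RNF187, an E3 ubiquitin ligase gene (chromosome 1, 228490055 to 228490534), read -0.91, -2.94 and -0.03 in the authors' deposited table. RPMI8226 was near 0 there. KIF2C, a mitotic kinesin (-0.61, -2.25 and -0.07), and VEGFA, an angiogenic growth factor (-0.75, -2.18 and -0.04), had the same order of lines in the authors' deposited table. The lowest RPMI8226 value was in WNT11, a Wnt ligand (chromosome 11, 76208461 to 76209549), at -0.57, -1.20 and -1.44 in the authors' deposited table.

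Other regions below -1 in at least 2 lines are named here with their values in view. LONP1, a mitochondrial protease gene (-1.29, -1.68 and -0.66), and HSPD1, which encodes the mitochondrial chaperonin (-1.24, -1.58 and -0.44), were lowest in KMS-12 in the authors' deposited table. FKBP11, a prolyl isomerase gene of secretory cells, read -1.05, -1.16 and -0.73, and GADD45A, a gene of the DNA damage response, -1.25, -1.50 and -0.30, in the authors' deposited table. PTMA, the prothymosin gene, read -1.03, -1.50 and -0.83 in the authors' deposited table. GORASP2, a gene of Golgi stacking, had another order of lines, with RPMI8226 lowest and KMS-12 weakest at -1.22, -0.12 and -1.40 in the authors' deposited table. XPO6, an exporter of actin, was likewise lowest in RPMI8226, at -0.45, -1.04 and -1.20 in the authors' deposited table.

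**Figure D5:**
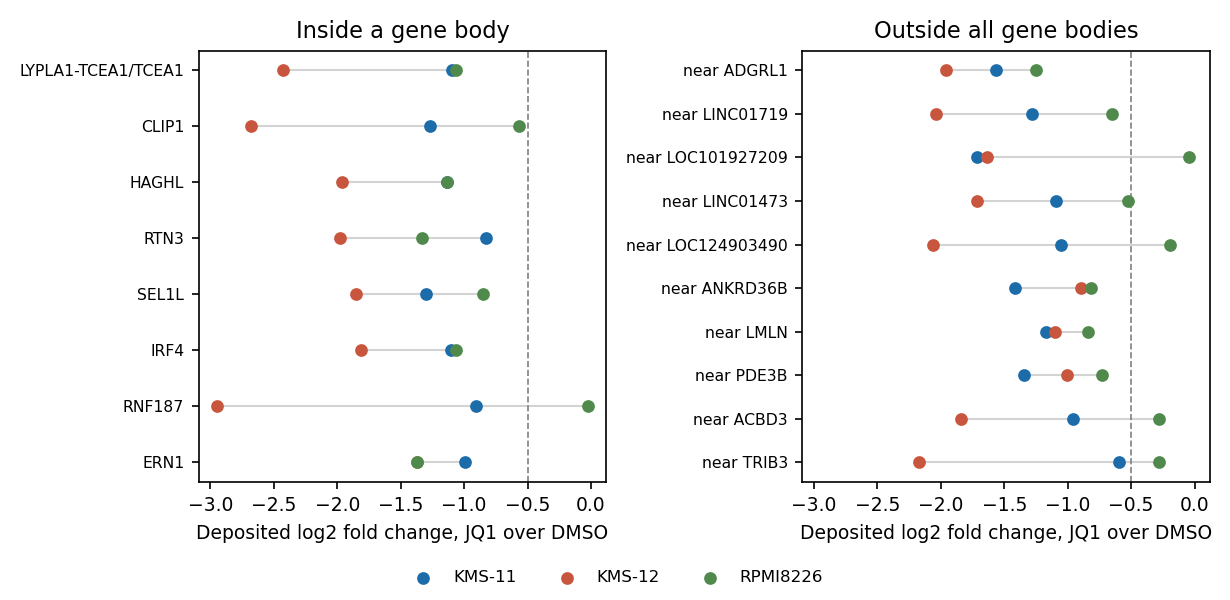
Log2 fold changes of the authors' deposited table (horizontal axis) in the 3 lines for the regions with the lowest mean over the lines, inside gene bodies (8 of the 10 lowest, as the others are not reported here) and outside them (10); the dashed line is -0.5 and names outside are the nearest gene. Points coincide for KMS-11 and RPMI8226 in HAGHL and for KMS-12 and RPMI8226 in ERN1, and RPMI8226 lies right of the dashed line in RNF187 and 4 regions outside.

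Outside all gene bodies the lowest mean was 41620 bp from ADGRL1, an adhesion receptor gene (chromosome 19, 14247789 to 14249277), with -1.57, -1.96 and -1.25 in the authors' deposited table. A region 13248 bp from LINC01719 (chromosome 1, 146037261 to 146039348), which holds a transfer RNA gene, stood at -1.28, -2.04 and -0.65 in the authors' deposited table. Beside LINC01473, at 43441 bp (chromosome 2, 186129758 to 186130608), the values were -1.09, -1.71 and -0.52 in the authors' deposited table. These 3 passed -0.5 in all lines and were lowest in KMS-12.

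ANKRD36B, an ankyrin repeat gene, had a region 162 bp upstream of its start (chromosome 2, 97590039 to 97590958) at -1.42, -0.90 and -0.81 in the authors' deposited table. PDE3B, a cyclic nucleotide phosphodiesterase gene, was 5631 bp from a region (chromosome 11, 14904952 to 14905579) at -1.35, -1.0 and -0.73 in the authors' deposited table. A region 36386 bp from LMLN, over the pseudogene ANKRD18DP (chromosome 3, 198080106 to 198081621), read -1.17, -1.10 and -0.84 in the authors' deposited table. In these 3 KMS-11 was lowest and every line was below -0.5.

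The rest of the lowest regions outside were weak in RPMI8226. Near LOC124903490 (chromosome 15, 50880381 to 50881079) the authors' deposited table reads -1.06, -2.06 and -0.20, and near ACBD3, a Golgi protein gene (chromosome 1, 226121670 to 226123167), -0.96, -1.84 and -0.28. TRIB3, a stress-induced pseudokinase, had a region 4592 bp beyond its end (chromosome 20, 402151 to 402523) at -0.59, -2.17 and -0.28 in the authors' deposited table. The lowest KMS-11 value was 1349 bp upstream of ZBTB7B, a zinc finger factor of T cell development (chromosome 1, 154999312 to 155000401), at -1.84, -0.76 and -0.26 in the authors' deposited table.

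Distance did not grade the values evenly. The share below -0.5 in all 3 lines was 29.5% at 1 to 250 bp, 24.2% up to 1 kb, 31.6% up to 2.5 kb, 25% up to 10 kb, 19.6% up to 50 kb and 14.3% beyond, where the list as a whole had 25.4%. The nearest class held 166 regions and the farthest far fewer, so its share rests on few regions. The farthest region outside was 501121 bp from LOC101927209 (chromosome 4, 49709356 to 49711895), at -1.71, -1.64 and -0.04 in the authors' deposited table. The next was 220677 bp from NDST4 (chromosome 4, 115334297 to 115334928) and lowest in RPMI8226, at -0.76, -0.63 and -1.02 in the authors' deposited table. Regions near LOC105377910 (100979 bp; -0.84, -0.61 and -0.02), LOC102724200 (74476 bp; -0.68, -1.60 and -0.11) and HHEX (60686 bp; -0.59, -0.69 and -0.35) were all above -0.5 in RPMI8226 in the authors' deposited table.

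Deep inside genes, a region in the lncRNA gene LOC105376755 was 260005 bp from any boundary and read -0.76, -0.24 and -0.66 in the authors' deposited table. CAMK1D, a calcium-dependent kinase gene, held one 124311 bp away (chromosome 10, 12710569 to 12711234) at -1.21, -0.94 and -0.61 in the authors' deposited table. It was the only one of the 5 deepest that passed -0.5 in all lines. CTNNA3, a catenin gene, held one only 152 bp from a transcription start in RefSeq, at -0.59, -0.76 and -0.31 in the authors' deposited table. The ZMYM2 and PREX1 regions, whose windows are printed above, read -0.44, -0.94 and -0.51, and -0.63, -0.40 and -0.72, in the authors' deposited table.

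Among 49 genes of the endoplasmic reticulum and unfolded protein response, 6 had an off-boundary region. Over all protein coding genes 1.78% had an off-boundary region. These 6 genes had 7 such regions, 2 of them in SEL1L. Of the 7 regions, 6 were below -0.5 in all 3 lines, where the whole list had 25.4%. The median of their mean values was -0.76 in the authors' deposited table, against -0.63 over all off-boundary regions. SEC61A1, the channel subunit of the translocon (chromosome 3, 128052370 to 128053356), read -1.15, -0.57 and -0.55 in the authors' deposited table. SEC63, its partner (-0.82, -0.74 and -0.62), and CRELD2, a chaperone-like protein (-0.73, -0.77 and -0.66), were more even between lines in the authors' deposited table. The list was chosen with earlier results of these data known.

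Of 37 genes of the amino acid response, 7 had an off-boundary region, where 1.78% of all protein coding genes had one. Below -0.5 in all 3 lines were 3 of the 7 off-boundary regions, where the whole list had 25.4%. DDIT4, an inhibitor of mTORC1 (chromosome 10, 72274012 to 72275798), read -1.02, -1.32 and -1.09 in the authors' deposited table. SLC7A5, the leucine transporter (chromosome 16, 87867270 to 87869391), read -0.82, -1.38 and -0.88 in the authors' deposited table. SLC3A2, its heavy chain, read -0.95, -1.12 and -0.14, and SLC1A5, the glutamine transporter, -1.20, -1.48 and -0.45, in the authors' deposited table. KMS-12 was lowest in all 4. The third region below -0.5 in every line was in ALDH18A1, an enzyme gene of proline synthesis, at -0.53, -0.81 and -0.51 in the authors' deposited table. KMS-12 was also lowest in SARS1, the seryl-tRNA synthetase gene, at -0.53, -1.75 and -0.20 in the authors' deposited table.

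Over all protein coding genes 1.78% had an off-boundary region by the same assignment (host gene, or nearest gene outside gene bodies), and the counts for lineage and myeloma genes were small. IRF4 was the only one of 27 plasma cell regulators with an off-boundary region. Of 36 surface and secreted proteins 3 had one, none below -0.5 in all 3 lines: MZB1, a helper of antibody secretion (-1.40, -0.99 and -0.07), BMP6 (-0.39, -1.36 and -0.65) and IGF1R (-0.53, -0.61 and -0.45) in the authors' deposited table. Of 37 myeloma genes, NSD2, the histone methyltransferase, had a region 409 bp upstream of its start (-0.60, -0.82 and -0.10) and the kinase PIM3 one 6893 bp beyond its end (-0.13, -1.14 and -0.66) in the authors' deposited table. FLI1, an ETS factor, held 1 region, in the lncRNA gene SENCR as well (chromosome 11, 128693479 to 128695455), at -0.62, -0.58 and -0.28 in the authors' deposited table. ERF, an ETS repressor, read -0.75, -0.95 and -0.95 in the authors' deposited table. MYC and SMILO (LINC00582) held none, and the nearest off-boundary regions were 3.363 and 1.716 Mb away.

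In the MYC network 4 of 25 genes had an off-boundary region, and none of these regions passed -0.5 in all lines. MXI1, a MAX-binding repressor, was lowest of them at -0.23, -1.28 and -0.60 in the authors' deposited table. Of 69 histone genes, 4 had an off-boundary region, where 1.78% of all protein coding genes had one. These 4 genes had 5 off-boundary regions, 3 of the 5 below -0.5 in every line, where the whole list had 25.4%. H3-3A, the H3.3 gene, read -0.85, -0.88 and -1.11 in the authors' deposited table. A region 207 bp beyond the end of H4C15, over the pseudogene H2BC19P, read -1.03, -0.60 and -0.94 in the authors' deposited table. Another lay inside H4C15, 376 bp from the start of H2AC19 and over the pseudogene H2BC20P. It read -1.16, -0.76 and -1.31 in the authors' deposited table. RPMI8226 was lowest in H3-3A and in the region inside H4C15. PABPC1, the poly(A)-binding protein (-1.02, -0.78 and -1.11), passed in all lines and EIF4EBP1, a translation inhibitor (-0.52, -1.73 and -0.21), did not, in the authors' deposited table. TUBA1B, a tubulin gene, read -1.15, -0.89 and -0.00 in the authors' deposited table. Single regions were found for RRM2, a ribonucleotide reductase subunit (-0.90, -0.92 and -0.29), and BBC3, the apoptosis inducer PUMA (-0.52, -0.87 and -0.04), in the authors' deposited table. Beside that 1.78% of all protein coding genes, off-boundary regions were found for 2 of 38 translation genes, 3 of 29 cytoskeletal genes, 1 of 33 cell cycle genes, 1 of 25 apoptosis genes and 2 of 25 ETS genes. They were also found for TCEA1 alone of 32 BET-responsive and elongation genes, SOCS1 alone of 36 signalling feedback genes, and 4 of 68 chromatin genes, none of whose regions passed in all lines. No member of the NF-kB, ubiquitin or RNA processing lists had one.

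Genes of types the rule did not use overlapped 30 off-boundary regions, 19 of them outside gene bodies, an overlap examined after the values were seen. Transfer RNA genes were in 9 regions, 5 of which were below -0.5 in all 3 lines (4 of 5 outside and 1 of 4 inside, whole list 25.4%), with medians of -1.01, -0.83 and -0.59 in the authors' deposited table. The region near RCSD1 (chromosome 1, 167714273 to 167715458) read -1.05, -0.83 and -1.16, and that in KCTD2 (chromosome 17, 75034030 to 75035161) -1.43, -0.58 and -0.77, in the authors' deposited table. Pseudogenes were in 13 regions outside, 3 of which passed in all lines, SUZ12P1 among them at -0.96, -0.74 and -0.71 in the authors' deposited table. The sources used here do not say how reads shared with near-identical copies were assigned.

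MicroRNA genes lay in 4 regions, and mature sequences are shown for 3 of these to identify the miRNAs, with the seed (bases 2 to 8) in capitals.
hsa-miR-148a-3p: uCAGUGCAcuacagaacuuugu
hsa-miR-760: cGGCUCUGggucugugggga
hsa-miR-4449: cGUCCCGGggcugcgcgaggca
The sequences are from RefSeq on GRCh38.p14, and no seed is shared between them. MIR148A lay in the region of LOC105375199 (chromosome 7, 25949908 to 25951225), at -1.25, -0.26 and -0.66 in the authors' deposited table, and MIR4449 in that of the lncRNA gene DANCR (chromosome 4, 52712441 to 52713452), at -0.82, -0.51 and -0.71. The DANCR region passed -0.5 in every line and the MIR148A region did not in KMS-12.

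Off-boundary regions were mostly solitary. Joining those within 10 kb gave 400 groups, of which 16 were pairs and none larger. IRF2BP2, a corepressor gene, had a pair at -0.77, -1.32 and -0.30, and -0.50, -0.94 and -0.60, in the authors' deposited table. The second region of the ZBTB7B pair read -0.78, -1.55 and -0.47 in the authors' deposited table, and KMS-12 was its lowest line where KMS-11 had been lowest in the first. The DDIT4 region was paired with one in DDIT4-AS1 at -1.0, -1.17 and -0.32 in the authors' deposited table.

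At the edge of the rule, the region of PTMS (-0.86, -1.03 and -0.29) lay 1 bp from a boundary and that of ARHGAP21 (-0.57, -0.67 and -0.22) 2 bp, in the authors' deposited table. Just across a boundary were PI4K2B (-0.74, -0.57 and -0.26), ESYT1 (-0.62, -0.68 and -0.08) and FAR1 (-0.71, -0.75 and -0.16) in the authors' deposited table.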

How the data were processed

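H3K27ac ChIP-seq was done in 3 myeloma lines, with 1 DMSO and 1 JQ1 sample each. The authors deposited 1 table of regions with log2 fold changes per line (log base and numerator not written in the file) and, per the file headers, the number of lines in common. DESeq2, MACS2, hg38 and GRCh38.p13 are named without roles in the submitters' processing notes, and the sources used here give no aligner or scaling. Depth is unknown and the list was filtered on its values, so no interval or test is given.

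Regions were set against the starts and ends of 38349 RefSeq genes (20046 protein coding, 18303 lncRNA; GRCh38.p14). A boundary on the first or last base counted as crossed. Distances run from the nearer edge, and strand was known for 27304 genes. Classification was tested on simulated data, where 2121 of 2121 planted regions were recovered. Python 3.11.15, pandas 2.3.3 and numpy 2.4.6 were used. Named regions are the 10 lowest by mean inside and outside, the extremes of each line, distance and range, and up to 4 members of each of 22 lists, plus SMILO, FLI1 and MYC. Joined groups were to be named by their number of regions. All were pairs, so the first in sorted order, on chromosomes 1 and 10, were taken. Any other gene was picked with its values in view. Members and lists were chosen with earlier results of these data known. A few regions that these rules pick, 2 of the 10 lowest inside genes among them, are not reported here, and all counts and medians include them.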

Additional observations from a re-analysis of the deposited data

How the results depend on the processing

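Of 90 recomputed alternatives over 22 results, 59 stayed close to the reported value, 31 moved and 0 reversed. Close meant within a set ratio for counts and shares, and within 0.084 (the SD of the 3 line medians) for fold changes. By this rule a change from 81 to 58 outside regions was close, as was one from -0.0045 to -0.0294 in the difference of medians. Only that difference, off-boundary minus across, could reverse. Counts and shares could not, nor could medians of values that are all negative. Requiring no boundary within 250 bp, 1 kb or 2.5 kb left 250, 184 or 146 off-boundary regions, and testing midpoints only gave 762. With no boundary within 1 kb, 126 regions were inside; with protein coding genes alone, 127 were outside. Below -0.6, -0.75 and -1 in all 3 lines were 60, 23 and 5 off-boundary regions (inside 48, 19 and 4; outside 12, 4 and 1). With no boundary within 1 kb, 44 off-boundary and 29 inside regions were below -0.5 in all 3. Leaving out 1 line, counts in both remaining lines were 187 to 258 off-boundary, 154 to 205 inside and 33 to 53 outside. In the share below -1 in at least 2 lines, added after seeing the data along with shifting starts by 1 base, leaving out a line gave 2.16% to 8.65% off-boundary and 0.24% to 3.08% across. For the same share the 1 kb rule gave 14.13% off-boundary and 5.5% across. The cause of these moves was not tested beyond what each alternative changes by construction. No paired analysis was possible because no result comes from a test: each value is already a JQ1 to DMSO difference within a line, and the list was filtered on these values. Without sample values, other scalings and filters on low counts were not run. Without depth or replicates, no difference between regions or lines was tested.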
